A study of Mus musculus with 30 samples.

Results

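Alpha-cells of the mouse pancreas taken 30 days after toxin-induced loss of the beta-cells were set against beta-cells, to ask how far their expression still lay from that of the lost cell type. The comparison used 11 of the 30 bulk RNA-seq libraries of the study, chosen by the transgenic label alone. The 4 libraries labelled ctl DT, called alpha DT here, came from Glucagon-Venus; RIP-DTR mice. In these mice a fluorescent reporter marks glucagon-producing cells and the rat insulin promoter drives a receptor for diphtheria toxin, so that the toxin kills beta-cells. Toxin was given at 2 months of age. The 7 libraries labelled b-cell reference, called beta here, came from Insulin-mCherry mice aged 3 months, which carry no toxin receptor and received no toxin. Neither group carried the Pdx1 transgene used elsewhere in the study. Cells of both groups were isolated by FACS. The toxin, the receptor transgene and the reporter differ between the groups along with the cell type, and their parts cannot be told apart. Another 8 libraries of Glucagon-Venus mice aged 3 months without toxin (alpha) are given beside some genes.

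Alpha- and beta-cells are neighbouring endocrine cells of the islet. Beta-cells take up glucose, close ATP-sensitive potassium channels and secrete insulin, while alpha-cells secrete glucagon, which raises blood glucose. Pdx1, Nkx6-1 and Mafa are transcription factors of beta-cell identity, and Irx1 and Irx2 are factors of alpha-cell identity. After near-total beta-cell loss in mice, a few alpha-cells are known to begin making insulin.

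The deposited values were quantile-normalized log2 values, in which each library has the same distribution, with a median of 8.55 and a top value of 22.57. The most abundant genes therefore take fixed values, and differences of hormone genes show rank within a library, not amount. The table holds no read totals. The number of distinct values below the first quartile, which grows with depth, was 49 to 71 in alpha DT and 50 to 99 in beta. Libraries correlated with the others of their group over genes at a mean r of 0.875 to 0.902 in alpha DT and 0.923 to 0.970 in beta. The labels give neither batches nor separate animals, so p-values measure only the spread between libraries. That spread was estimated over the 5 groups of all 30 libraries of the study, those with the Pdx1 transgene included. Gene coordinates are those of GENCODE vM21 on GRCm38. Differences below are alpha DT minus beta on the log2 scale, with the standard error after ±. The lowest value differed by library, from 0.76 in beta 1 and beta 5 to 2.00 in alpha DT 3. Where most libraries of a group were at it, the size of a difference depends on that value. Among others this holds in beta for Egr4, Fcgrt, Gli2, Prph, Rtp1, Slc10a4, Slc38a11, Slc5a7 and Stmn2. In alpha DT it holds for Gm18792 and Oas2. Adjusted p-values are from limma over all 16633 genes tested, with a threshold of 0.05. In bulk libraries, fewer cells of a type and less RNA per cell cannot be told apart.

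The marker genes matched the labels except in 2 beta libraries. Gcg, the glucagon gene, was at the top value in all 4 alpha DT libraries, and also in the libraries labelled beta 1 and beta 5. It ranked 7 to 47 in the other 5 beta libraries. Ins1, an insulin gene, ranked 143 to 2082 in alpha DT and 1 or 2 in every beta library. Over the 9 tested alpha-cell transcription factors the mean value was 11.45 to 11.90 in alpha DT, 9.84 in beta 1, 9.97 in beta 5 and 7.05 to 7.43 in the other beta libraries. Acinar-cell and leukocyte markers were also higher in those than in the other beta libraries. The mean of 17 acinar-cell markers was 7.57 to 13.50 in alpha DT, 13.75 in beta 1, 13.62 in beta 5 and 6.24 to 11.12 in the other beta libraries. That of 17 leukocyte and macrophage markers was 6.29 to 10.72 in alpha DT, 9.97 in beta 1, 7.32 in beta 5 and 5.22 to 5.91 in the other beta libraries. Both libraries were kept under their labels, and results that rest on them are given again without them. They stand out by their Gcg level, so values without them do not test hormone or identity genes anew.

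In all, 5010 of 16633 genes tested differed between alpha DT and beta, which is 30.1% of them. Of these, 2254 (13.6%) were higher and 2756 (16.6%) lower in alpha DT, and the median absolute difference among them was 1.31. A difference of at least 1 was reached by 1596 higher and 1752 lower genes, and one of at least 4 by 92 higher and 167 lower genes. Libraries of the groups did not overlap at 17.6% of the genes, 7.21% with alpha DT above and 10.4% below. Without beta 1 and beta 5 the count was 4930 (2227 higher and 2703 lower), of which 4578 were shared with the full set. The split depends on scaling. With each library centred on the median of its pan-endocrine transcription factors, 1293 genes were higher and 4199 lower, and the median difference of all genes moved to -0.34, against -0.04 as deposited.

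Genes were then described by 39 lists of function and cell type, which hold 751 genes, 660 of them in the table and 646 tested. Counts below are of tested members, and median differences are over tested members. Each count is to be read beside the shares over all genes tested, 30.1% in either direction, 13.6% higher and 16.6% lower.

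**Figure D1:**
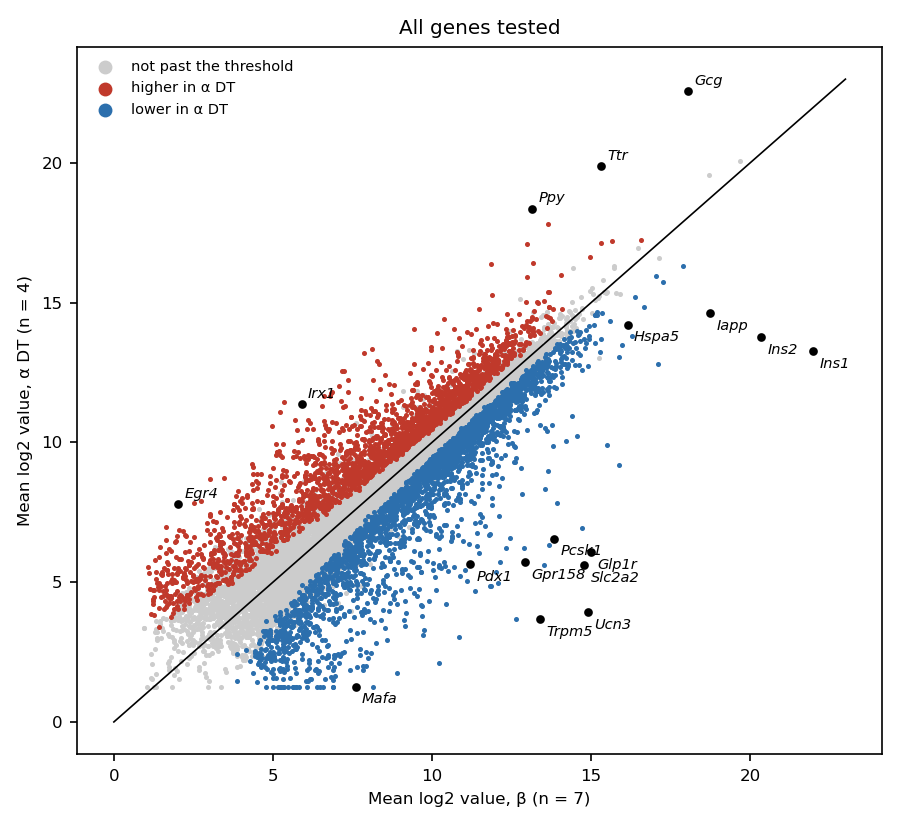
Mean log2 value of each of the 16633 genes tested in beta (x axis, n = 7) and alpha DT (y axis, n = 4), with genes past the threshold in red where higher and in blue where lower in alpha DT, and selected genes in black. The line marks equal values. Of the genes in black, Ucn3, Trpm5, Slc2a2 and Glp1r lie farthest below it, and Egr4 and Irx1 farthest above it.

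Beta-cell peptides were far lower in alpha DT. Of 6 hormones and co-secreted peptides, 5 were lower and none higher, where 16.6% of all genes tested were lower. The median difference was -5.60, against -0.04 over all genes. Ins1 (chr19:52264297-52265476) was 11.52, 14.15, 14.03 and 13.34 in alpha DT, against 20.54 to 22.57 (median 22.57) in beta. Its highest alpha DT library lay well under the lowest beta library, and the difference was -8.73 ± 1.20, adjusted p = 4.13e-06. Ins2, the second insulin gene of the mouse, was 12.83, 14.51, 13.91 and 13.86 in alpha DT and 19.87 to 20.54 (median 20.54) in beta (difference -6.57 ± 1.07, adjusted p = 3.70e-05). Ins1 and Ins2 are similar in sequence, and how shared reads were counted is not given in the sources used here. Both stayed above the library median of 8.55 in every alpha DT library. Iapp, the islet amyloid peptide co-secreted with insulin, was 14.86, 15.75, 13.84 and 14.03 in alpha DT and 17.31 to 19.27 (median 19.27) in beta, a smaller gap of -4.14 ± 0.98, adjusted p = 0.0022. Ucn3 (chr13:3940688-3945349), a peptide of mature beta-cells, had the largest negative difference of the named genes for which a size is given. It was 4.18, 4.37, 4.10 and 3.05 in alpha DT and 14.05 to 15.49 (median 15.11) in beta (-10.98 ± 0.92, adjusted p = 9.54e-10). Npy, a neuropeptide gene, did not pass the test (-1.02 ± 0.90, adjusted p = 0.416).

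Sequences just upstream of 4 hormone and glucose genes are shown because these genes lie at opposite ends of the comparison. They are the RefSeq promoters of GRCm38.p6, 250 bases before to 50 after the start, 5′ to 3′ on the strand of the gene. Capitals mark TAAT, the core letters bound by many homeodomain factors, and CATCTG, an E-box form, on either strand, and no base lies in both. They lie at chr19:52264047-52264346 (plus strand) for Ins1, chr6:142298175-142298474 (plus) for Iapp, chr3:28697653-28697952 (plus) for Slc2a2 and chr2:62483604-62483903 (minus) for Gcg.
Ins1: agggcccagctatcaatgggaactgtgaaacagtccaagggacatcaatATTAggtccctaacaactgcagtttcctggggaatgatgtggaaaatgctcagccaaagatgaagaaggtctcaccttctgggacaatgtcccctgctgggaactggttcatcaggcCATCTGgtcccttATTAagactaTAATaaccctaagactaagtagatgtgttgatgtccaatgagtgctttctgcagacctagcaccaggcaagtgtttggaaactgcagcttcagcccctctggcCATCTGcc
Iapp: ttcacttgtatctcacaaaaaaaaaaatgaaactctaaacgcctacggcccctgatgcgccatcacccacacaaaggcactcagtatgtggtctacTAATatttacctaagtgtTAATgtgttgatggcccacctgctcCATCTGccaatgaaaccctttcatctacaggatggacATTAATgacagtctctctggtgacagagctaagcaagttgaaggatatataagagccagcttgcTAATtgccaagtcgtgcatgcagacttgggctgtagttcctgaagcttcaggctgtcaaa
Slc2a2: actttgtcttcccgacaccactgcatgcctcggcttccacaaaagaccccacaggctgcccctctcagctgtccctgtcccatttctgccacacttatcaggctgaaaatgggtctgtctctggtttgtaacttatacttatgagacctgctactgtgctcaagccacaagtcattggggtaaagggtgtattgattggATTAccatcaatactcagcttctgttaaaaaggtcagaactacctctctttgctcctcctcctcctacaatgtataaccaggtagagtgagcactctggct
Gcg: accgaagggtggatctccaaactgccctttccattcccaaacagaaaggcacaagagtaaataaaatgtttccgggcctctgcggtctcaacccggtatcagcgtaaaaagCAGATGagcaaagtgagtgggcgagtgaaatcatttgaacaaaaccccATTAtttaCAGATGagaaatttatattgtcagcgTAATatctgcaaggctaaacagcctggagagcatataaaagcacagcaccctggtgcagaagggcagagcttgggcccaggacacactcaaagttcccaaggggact
TAAT occurs 3 times in the Ins1 window, 5 times in that of Iapp, 1 time in that of Slc2a2 and 2 times in that of Gcg. CATCTG occurs 2 times in Ins1, 1 time in Iapp, 0 times in Slc2a2 and 2 times in Gcg. Of 32851 promoters of this length, 58% hold TAAT and 17.2% hold CATCTG, counted by presence and not by number. Whether the letters set these genes apart was not tested. They are a description and not sites shown to be bound.

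Transcription factors of beta-cells were lower too. Of 7 tested, 6 were lower and none higher in alpha DT, with a median difference of -5.12. Pdx1 (chr5:147269959-147275848), which activates insulin transcription, was 6.52, 6.70, 3.71 and 5.63 in alpha DT and 10.45 to 11.77 (median 11.26) in beta (-5.56 ± 1.18, adjusted p = 0.000732). Nkx6-1 (chr5:101658139-101664996), a homeodomain factor that represses other islet fates, was 6.50, 7.73, 5.84 and 6.66 in alpha DT and 11.13 to 12.34 (median 11.91) in beta (-5.12 ± 0.43, adjusted p = 1.02e-10). No alpha DT library reached the lowest beta library for either gene. Mafa (chr15:75745490-75748228), an insulin gene activator of mature beta-cells, was at the lowest value of the library in all 4 alpha DT libraries and 6.25 to 8.78 (median 7.95) in beta (adjusted p = 2.62e-10), so no size of its difference is given. Mnx1, a motor neuron and beta-cell factor, was at that lowest value in alpha DT too. Nkx6-3 did not pass the test (2.06 ± 0.85, adjusted p = 0.0636), and was higher in alpha DT without beta 1 and beta 5 (2.69, adjusted p = 0.0179).

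**Figure D2:**
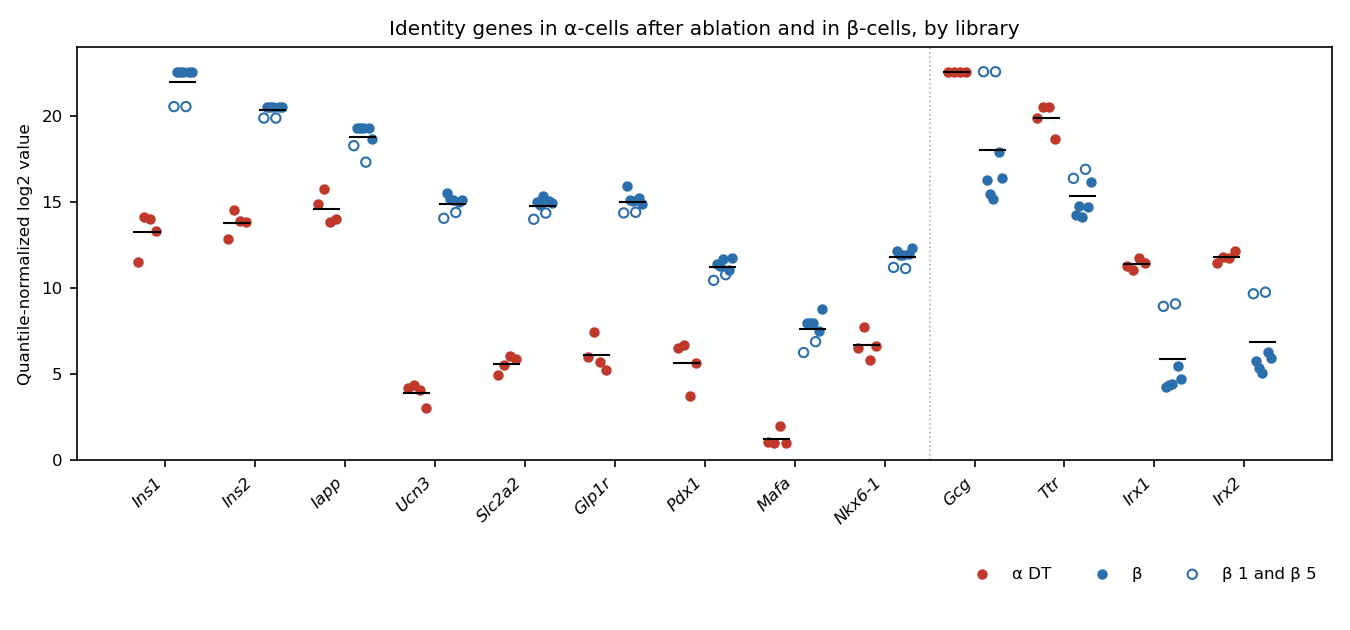
Deposited log2 values (y axis) of beta-cell genes (left of the dotted line) and alpha-cell genes (right), with a point for each library, alpha DT in red left of beta in blue, and bars at group means. Open circles are beta 1 and beta 5, which stand above the other beta libraries for Gcg, Irx1 and Irx2. Slc2a2 lies between 4.92 and 6.07 in alpha DT and between 13.99 and 15.37 in beta.

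Genes for glucose uptake and sensing were far lower in alpha DT, apart from those of the KATP channel, which did not pass the test. Of 12 genes, 8 were lower and none higher in alpha DT, with a median of -3.96. Slc2a2 (chr3:28697903-28731359), the glucose transporter of beta-cells, was 4.92, 5.52, 6.07 and 5.88 in alpha DT and 13.99 to 15.37 (median 14.96) in beta. The groups were separated by a wide gap (-9.19 ± 0.57, adjusted p = 5.53e-13). Trpm5, a calcium-activated cation channel, was 3.06, 3.44, 4.30 and 3.95 in alpha DT and 12.40 to 13.85 (median 13.56) in beta (-9.71 ± 0.75, adjusted p = 8.06e-11). Sytl4, which tethers insulin granules, was 4.12, 6.96, 4.70 and 6.66 in alpha DT and 12.40 to 13.97 (median 13.77) in beta (-7.90 ± 0.61, adjusted p = 3.02e-11). G6pc2, the islet glucose-6-phosphatase, was lower by a similar amount (-6.69 ± 0.81). The mitochondrial enzyme genes Hadh (-4.68 ± 0.40) and Pcx (-3.64 ± 0.34) were also lower. In contrast, Abcc8, the sulfonylurea receptor subunit of the KATP channel, was 15.25, 15.86, 15.69 and 14.78 in alpha DT and 14.86 to 15.86 (median 15.46) in beta. These ranges nearly coincide, and the difference was 0.00 ± 0.21, adjusted p = 0.998. Its pore subunit gene Kcnj11 (0.37 ± 0.18, adjusted p = 0.121), the granule zinc transporter gene Slc30a8 (-0.12 ± 0.23, adjusted p = 0.746) and the calcium channel gene Cacna1d (-0.23 ± 0.19, adjusted p = 0.37) did not pass the test.

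All 13 tested receptors of the beta-cell list differed, 11 lower and 2 higher in alpha DT. Glp1r (chr17:30901817-30940791), the receptor of the incretin GLP-1, was 5.98, 7.46, 5.70 and 5.21 in alpha DT and 14.36 to 15.96 (median 15.05) in beta (-8.91 ± 0.66, adjusted p = 5.97e-11). Prlr, the prolactin receptor, was 6.60, 7.25, 8.001 and 5.88 in alpha DT and 13.97 to 15.57 (median 14.81) in beta (-7.78 ± 0.50, adjusted p = 7.64e-13). Every alpha DT library lay below every beta library for both receptors. The glucagon receptor gene Gcgr was at -5.53 ± 0.72, the fatty acid receptor gene Ffar1 at -3.69 ± 0.59 and the incretin receptor gene Gipr at -1.93 ± 0.38. Gprc5b, an orphan receptor, went the other way with 8.29, 9.72, 9.10 and 8.93 in alpha DT and 4.43 to 7.04 (median 4.90) in beta (3.69 ± 0.43, adjusted p = 5.66e-08). Gpr119, a lipid receptor of endocrine cells, was higher with overlapping libraries (0.89 ± 0.28, adjusted p = 0.0164, or 0.0703 to 0.102 with alpha DT 1 or alpha DT 2 left out). Of the genes with the lowest differences outside these lists, Tmem215 was 2.67, 4.01, 5.34 and 2.67 in alpha DT and 11.70 to 13.13 (median 12.81) in beta (-8.97 ± 0.77, adjusted p = 4.59e-10). Gm17767 (chr1:51507086-51596718), a predicted gene, was at -8.12 ± 0.73, adjusted p = 3.23e-10. On the centred scale Gpr119 did not pass (0.59, adjusted p = 0.091).

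Alpha-cell hormone and effector genes were higher in alpha DT in 13 of 14 cases and lower in none (13.6% of all genes tested were higher), with a median of 2.70 (3.24 without beta 1 and beta 5). Gcg (chr2:62474530-62483650) was at the ceiling of 22.57 in each alpha DT library, while beta ran from 15.16 to 22.57 (median 16.37). The groups overlap at the ceiling through beta 1 and beta 5, and the difference was 4.52 ± 1.21, adjusted p = 0.00568, or 6.33, adjusted p = 2.49e-06, without them. With the 11 libraries fitted alone its adjusted p was 0.0555. Ttr (chr18:20665280-20674321), the transthyretin gene, was 19.87, 20.54, 20.54 and 18.63 in alpha DT and 14.13 to 16.90 (median 14.76) in beta (4.58 ± 0.83, adjusted p = 0.000146). Cldn11, a tight junction claudin, was 6.05, 8.39, 7.88 and 8.98 in alpha DT and 0.99 to 4.75 (median 2.69) in beta (5.30 ± 0.72, adjusted p = 8.04e-07). The vitamin D-binding protein gene Gc (3.45 ± 0.42) and the glutamine transporter gene Slc38a5 (3.22 ± 0.45), both known from alpha-cells, were higher as well. Sh3gl2, an endophilin gene, was the member that did not pass (0.01 ± 0.19, adjusted p = 0.969).

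Alpha-cell transcription factors were higher in 8 of 9 cases, with a median of 4.60 (5.46 without beta 1 and beta 5). Irx1 (chr13:71957921-71963723), an Iroquois homeodomain factor, was 11.27, 11.05, 11.74 and 11.45 in alpha DT and 4.26 to 9.08 (median 4.74) in beta (5.48 ± 0.70, adjusted p = 8.76e-07). Irx2 (chr13:72628820-72634198), of the same family, was 11.45, 11.80, 11.73 and 12.14 in alpha DT and 5.09 to 9.76 (median 5.94) in beta (4.94 ± 0.64, adjusted p = 1.13e-06). For both the highest beta library was beta 1 or beta 5, and the differences without that pair were 6.72 for Irx1 and 6.09 for Irx2. Rfx3, a factor common to islet cells, was at 0.04 ± 0.21, adjusted p = 0.909.

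Receptors listed for alpha-cells were mixed, with 5 of 11 higher and 3 lower in alpha DT. Avpr1b, the vasopressin receptor of alpha-cells, was 11.32, 11.11, 11.60 and 10.27 in alpha DT and 3.26 to 8.81 (median 3.85) in beta (5.86 ± 0.93, adjusted p = 2.44e-05). Oxtr, the oxytocin receptor, was 13.76, 12.46, 13.61 and 11.80 in alpha DT and 4.98 to 11.50 (median 7.62) in beta (4.62 ± 0.75, adjusted p = 3.56e-05). In both, the upper beta values were those of beta 1 and beta 5. Gpr158 (chr2:21367542-21830547), an orphan-type receptor, was lower in spite of its place on this list, with 4.92, 7.18, 4.84 and 5.88 in alpha DT and 12.29 to 13.34 (median 13.10) in beta (-7.21 ± 0.38, adjusted p = 1.50e-15). The galanin receptor gene Galr3 (-3.55 ± 0.70, adjusted p = 0.000198) and Ffar2, a receptor of short-chain fatty acids, (-1.25 ± 0.30, adjusted p = 0.00164) were lower. Other genes with the highest differences were Pianp, encoding a neural membrane protein, with 11.11, 11.49, 11.87 and 11.39 in alpha DT and 4.57 to 6.41 (median 5.12) in beta (6.12 ± 0.99, adjusted p = 3.14e-05). Basp1, a growth cone membrane protein (5.60 ± 0.65, adjusted p = 1.22e-07), the imprinted gene Peg10 (5.37 ± 0.89, adjusted p = 4.41e-05) and Vwde (5.35 ± 0.60, adjusted p = 1.51e-07) were higher too. Rps15a-ps8 was at 5.66 ± 0.83, adjusted p = 3.95e-06, but it is a ribosomal pseudogene that shares sequence with its parent, so its reads are uncertain.

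Factors shared by islet cells differed by small amounts. Of 17 pan-endocrine transcription factors, 4 were higher and 5 lower, with a median of -0.07 (4 and 3 without beta 1 and beta 5, and 2 and 5 on the centred scale). The centred scale is set by the median of these same genes, so that count does not test them anew. Prox1 was 13.10, 13.07, 12.72 and 13.21 in alpha DT and 11.26 to 12.39 (median 11.50) in beta (1.30 ± 0.20, adjusted p = 6.96e-06), and the LIM factor gene Isl1 was at 1.06 ± 0.29, adjusted p = 0.00596, or 0.56, adjusted p = 0.0853, without alpha DT 4. Insm1, a zinc finger factor of endocrine differentiation, was 8.35, 11.47, 10.15 and 11.55 in alpha DT and 11.12 to 12.81 (median 12.03) in beta, with overlapping libraries (-1.66 ± 0.56, adjusted p = 0.0255, or 0.0635 to 0.175 with alpha DT 1 or alpha DT 3 left out and a difference of -0.98 without alpha DT 1). Hnf4g was lower (-1.24 ± 0.43, adjusted p = 0.0261, or 0.0569 to 0.186 with alpha DT 2, alpha DT 3 or beta 1 left out and a difference of -0.78 without alpha DT 3) but did not pass without beta 1 and beta 5 (-1.06, adjusted p = 0.0692). Neurod1, required for both cell types, was at 0.07 ± 0.28, adjusted p = 0.881. Among 8 tested progenitor and dedifferentiation genes, 3 were higher and 1 lower. Fev, a factor of endocrine progenitors, was 9.53, 10.89, 11.56 and 9.78 in alpha DT and 3.95 to 8.05 (median 5.44) in beta (4.69 ± 0.56, adjusted p = 1.75e-07). It was as high in the alpha libraries without toxin, at 9.19 to 10.84 (median 10.04), and alpha DT minus alpha was 0.39 ± 0.55, adjusted p = 0.735. Neurog3, the inducer of endocrine fate, was lower, at 3.84, 5.46, 2.00 and 2.44 in alpha DT and 4.58 to 7.23 (median 6.05) in beta, with overlapping libraries (-2.54 ± 0.74, adjusted p = 0.0087, or -2.06, adjusted p = 0.0516, without alpha DT 3). Serpina7, a thyroxine-binding globulin gene, was higher than in beta (1.80 ± 0.38, adjusted p = 0.000373) but did not pass against alpha (0.705 ± 0.367, adjusted p = 0.281). With library weights neither Hnf4g (-1.06, adjusted p = 0.0559) nor Neurog3 (-1.62, adjusted p = 0.136) passed.

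**Figure D3:**
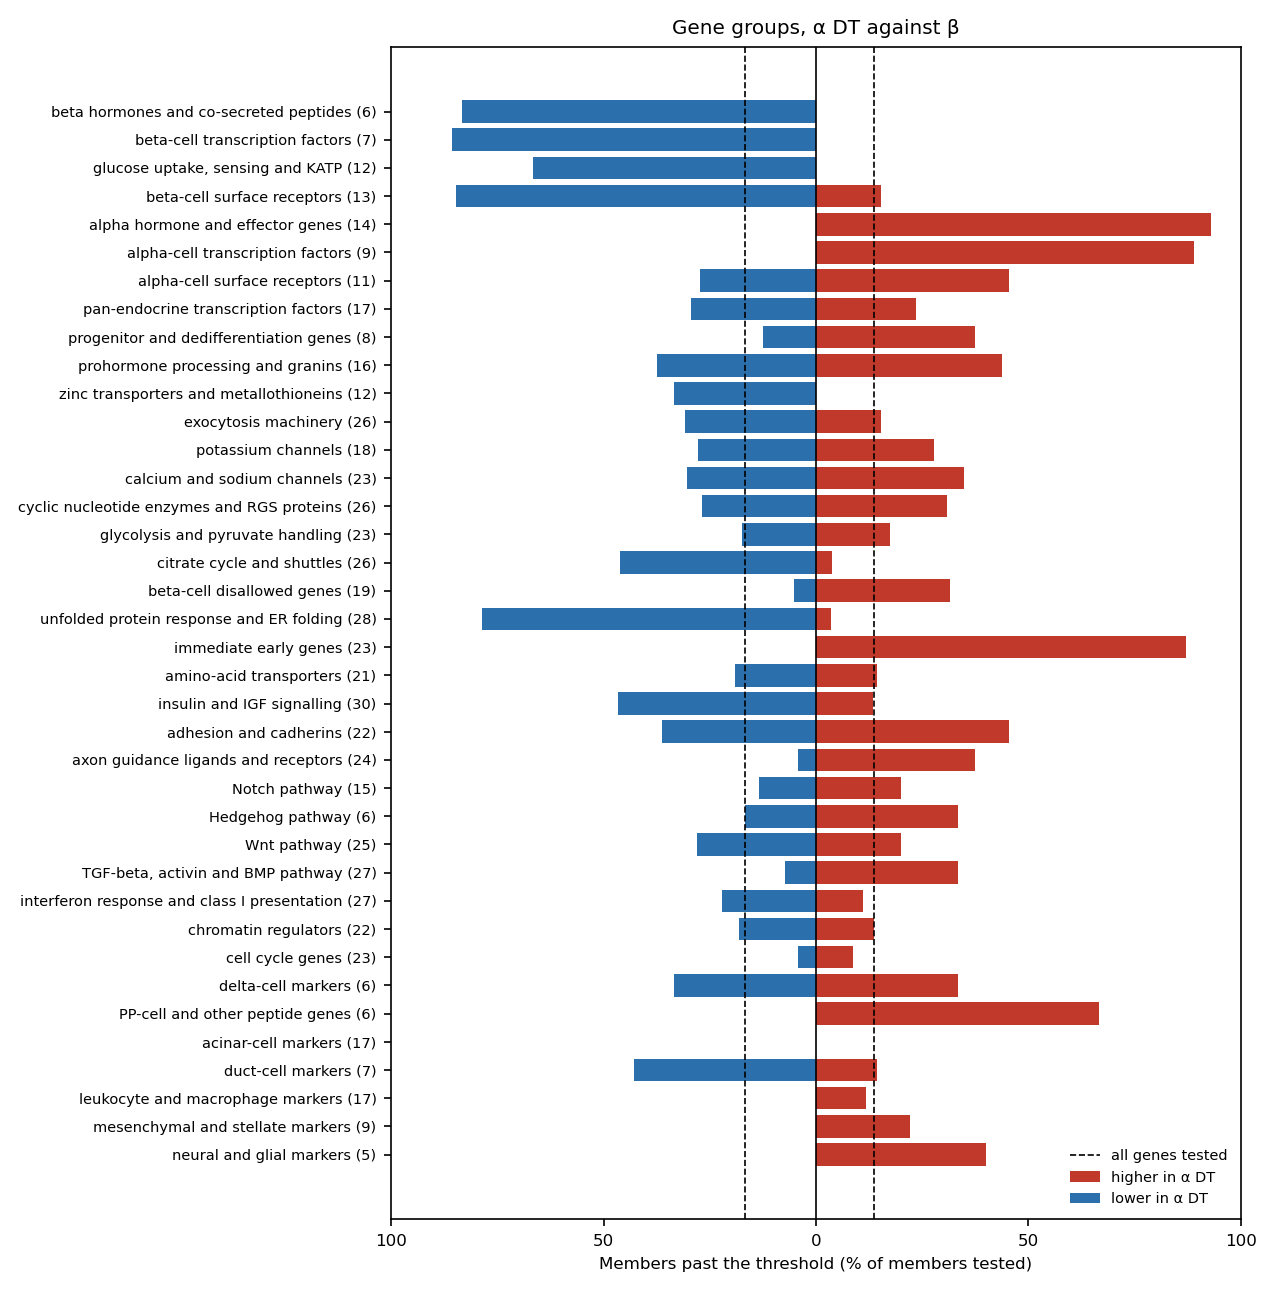
Share of the tested members of each gene group past the threshold (x axis, percent of members, with the number tested in brackets), higher in alpha DT to the right in red and lower to the left in blue. Dashed lines mark the shares over all genes tested, 13.6% higher and 16.6% lower. Beta-cell and ER folding groups extend to the left, and alpha-cell and immediate early groups to the right.

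Prohormone processing genes differed in both directions. Of 16 such genes and granins, 7 were higher and 6 lower in alpha DT (4 and 7 on the centred scale). Pcsk1 (chr13:75089826-75134861), the convertase that cleaves proinsulin, was 7.07, 8.21, 5.90 and 5.06 in alpha DT and 13.02 to 14.35 (median 14.02) in beta (-7.29 ± 0.56, adjusted p = 4.48e-11). Pcsk2, the convertase that makes glucagon, was higher (0.67 ± 0.22, adjusted p = 0.0182), but did not pass without beta 1 and beta 5 (0.46, adjusted p = 0.0998). Vgf, a secreted granin-like precursor, was 10.17, 10.01, 9.49 and 8.99 in alpha DT and 4.18 to 6.94 (median 5.97) in beta (3.88 ± 0.46, adjusted p = 7.89e-08). Qpct, which forms pyroglutamate at peptide ends, was 9.41, 9.96, 8.17 and 9.47 in alpha DT and 6.08 to 7.69 (median 6.95) in beta (2.30 ± 0.51, adjusted p = 0.00083). Scg3, which sorts granule cargo, was 14.67, 14.97, 14.99 and 14.74 in alpha DT and 15.75 to 17.09 (median 16.98) in beta (-1.82 ± 0.25, adjusted p = 9.36e-07). Libraries of the groups did not overlap for Pcsk1, Vgf, Qpct or Scg3. The granin genes Chga (-1.56 ± 0.31), Scg2 (-1.53 ± 0.34) and Chgb (-1.17 ± 0.28) were lower, and Scg5, which assists the convertase PC2, was higher (1.92 ± 0.19).

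Of 12 zinc transporters and metallothioneins, 4 were lower and none higher in alpha DT. That share (33.3%) lies above the 16.6% of all genes tested that were lower, and near the 30.1% that differed in either direction. The lower members included Slc30a5 (-0.93 ± 0.22, adjusted p = 0.0018, or -0.60, adjusted p = 0.0273, without alpha DT 3) and the importer gene Slc39a10 (-0.88 ± 0.23, adjusted p = 0.00437). Of 26 genes of the exocytosis machinery, 4 were higher and 8 lower (2 and 11 on the centred scale). Syt13, a synaptotagmin, was 12.58, 12.62, 13.22 and 12.57 in alpha DT and 14.37 to 15.21 (median 14.97) in beta (-2.17 ± 0.21, adjusted p = 1.92e-09). A pair of related vesicle GTPases differed in opposite directions. Rab3c was 12.08, 12.28, 11.86 and 12.75 in alpha DT and 7.03 to 10.36 (median 7.26) in beta (4.10 ± 0.46, adjusted p = 6.08e-08). Rab3b was 10.68, 10.28, 10.26 and 9.21 in alpha DT and 11.28 to 12.20 (median 11.63) in beta (-1.60 ± 0.39, adjusted p = 0.00214). Cplx1, a complexin, was 7.26, 6.21, 5.57 and 0.99 in alpha DT, against 0.86 to 4.48 (median 1.72) in beta (3.06 ± 0.98, adjusted p = 0.0169, or 0.0671 to 0.1 with alpha DT 1 or alpha DT 2 left out), with the library alpha DT 4 at its lowest value.

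Channel genes went both ways. Of 18 potassium channel genes, 5 were higher and 5 lower in alpha DT (4 and 8 on the centred scale). Kcnk3, a background potassium channel, was 11.26, 11.20, 11.96 and 10.73 in alpha DT and 4.87 to 9.64 (median 5.59) in beta (4.74 ± 0.68, adjusted p = 4.44e-06). Kcnj3, a G protein-gated inward rectifier, was 9.32, 10.04, 8.55 and 8.38 in alpha DT and 3.42 to 7.92 (median 4.16) in beta (4.07 ± 0.61, adjusted p = 6.50e-06). Lower were Kcnip1, a Kv4-interacting protein, at 6.64, 5.44, 6.91 and 6.24 in alpha DT and 10.78 to 11.97 (median 11.62) in beta (-5.12 ± 0.81, adjusted p = 2.10e-05), and the modifier subunit gene Kcng3 (-4.60 ± 1.08, adjusted p = 0.00147). Kcng3 was 1.07, 5.95, 7.37 and 7.33 in alpha DT, a wide spread, and 9.39 to 10.71 (median 10.09) in beta. Of 23 calcium and sodium channel genes, 8 were higher and 7 lower, a balance that turned to 5 and 8 on the centred scale. Scn3a, a voltage-gated sodium channel, was 12.22, 12.17, 11.78 and 12.63 in alpha DT and 9.28 to 10.98 (median 9.57) in beta (2.29 ± 0.24, adjusted p = 1.07e-08). Itpr3, a calcium release channel of the ER, was lower with no overlap of libraries (-1.29 ± 0.20, adjusted p = 8.11e-06). The subunit gene Cacng4 passed with overlapping libraries (2.30 ± 0.43, adjusted p = 8.99e-05).

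Of 26 cyclic nucleotide enzymes and RGS proteins, 8 were higher and 7 lower in alpha DT (6 and 10 on the centred scale). Adcy1, an adenylyl cyclase stimulated by calcium, was 10.52, 9.94, 8.59 and 9.52 in alpha DT and 4.30 to 6.94 (median 4.96) in beta (4.47 ± 0.43, adjusted p = 1.76e-09). Rgs4, which shortens G protein signals, was 11.67, 12.47, 11.73 and 11.80 in alpha DT and 6.54 to 11.02 (median 7.81) in beta (3.56 ± 0.59, adjusted p = 3.79e-05). Pde5a, a phosphodiesterase for cyclic GMP, was 6.94, 7.29, 5.34 and 6.76 in alpha DT and 11.91 to 12.99 (median 12.60) in beta (-5.88 ± 0.45, adjusted p = 3.95e-11). Prkar2b, a regulatory subunit of protein kinase A, was 8.05, 8.05, 7.74 and 8.29 in alpha DT and 10.23 to 11.29 (median 10.80) in beta (-2.77 ± 0.25, adjusted p = 3.23e-10). The libraries of the groups did not overlap for any of these 4 genes.

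Of 26 citrate cycle and shuttle genes, 12 were lower and 1 higher in alpha DT, with a median of -0.53, where 16.6% of all genes tested were lower. The other 13 did not pass. Idh2, a mitochondrial isocitrate dehydrogenase, was 10.15, 10.63, 10.42 and 9.59 in alpha DT and 10.87 to 11.72 (median 11.37) in beta (-1.14 ± 0.23, adjusted p = 0.000233). Sucla2, a succinate-CoA ligase subunit, was at -1.15 ± 0.26, adjusted p = 0.000817. The malic enzyme gene Me1 was the higher member (0.74 ± 0.22, adjusted p = 0.00964, or 0.59, adjusted p = 0.0567, without alpha DT 1). Of 23 genes of glycolysis and pyruvate handling, 4 were higher and 4 lower (3 and 8 on the centred scale), a share (34.8%) near the 30.1% of all genes. Pdk4 (chr6:5483351-5496309), a kinase that shuts pyruvate out of the citrate cycle, was 12.50, 12.27, 12.76 and 12.65 in alpha DT and 5.69 to 10.64 (median 6.05) in beta (5.30 ± 0.74, adjusted p = 4.09e-06). Hk1, the low-Km hexokinase, was 9.52, 9.31, 8.37 and 8.45 in alpha DT and 6.11 to 8.04 (median 6.39) in beta (2.17 ± 0.38, adjusted p = 4.37e-05). Pkm, the muscle-type pyruvate kinase (-1.24 ± 0.23, adjusted p = 7.36e-05) and Pgk1, phosphoglycerate kinase (-1.11 ± 0.23, adjusted p = 0.000388), were lower. Me1 did not pass on the centred scale (adjusted p = 0.181).

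Genes kept low in beta-cells, called disallowed genes, were higher in 6 of 19 cases and lower in 1, with a median of 1.36. In either direction that is a share (36.8%) near the 30.1% of all genes tested, and 12 did not pass. Without beta 1 and beta 5 the count was 9 higher and 1 lower. Igfbp4, an IGF-binding protein, was 8.91, 8.65, 6.97 and 7.82 in alpha DT and 2.18 to 7.77 (median 2.70) in beta (4.23 ± 0.91, adjusted p = 0.000626). Fcgrt, the neonatal Fc receptor, was 5.31, 4.33, 5.65 and 5.95 in alpha DT and 0.86 to 5.13 (median 1.03) in beta (3.60 ± 0.76, adjusted p = 0.000429). Beta 1 was the highest beta library for both. Ldha, lactate dehydrogenase A, was at 1.83 ± 1.14, adjusted p = 0.234, and passed without beta 1 and beta 5 (3.14, adjusted p = 0.0089). Oaf, a secreted protein gene, was the lower member (-2.31 ± 0.56, adjusted p = 0.00186).

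Most genes of ER protein folding were lower in alpha DT. Of 28 genes of folding and the unfolded protein response, 22 were lower and 1 higher, where 16.6% of all genes tested were lower, and 5 did not pass. The median was -1.31 (21 lower and 1 higher of 27 without beta 1 and beta 5). Against the alpha libraries without toxin, 0 of the 28 were higher and 1 lower in alpha DT, with a median of -0.11. In that contrast only 3.26% of all genes tested passed, so a count this low does not set the list apart. Hspa5, the main ER chaperone BiP, was 14.11, 14.41, 14.04 and 14.31 in alpha DT and 15.34 to 16.98 (median 16.37) in beta (-1.93 ± 0.25, adjusted p = 4.04e-07). Edem1, which sends misfolded glycoproteins to degradation, was 9.65, 9.49, 7.75 and 10.38 in alpha DT and 11.50 to 12.18 (median 11.87) in beta (-2.56 ± 0.30, adjusted p = 8.67e-08). All alpha DT libraries lay below all beta libraries for Edem1. Trib3, a stress-induced pseudokinase, was lower (-3.31 ± 0.75, adjusted p = 0.000903) and lay under the filter on low values, so was not tested, without beta 1 and beta 5. The sensor genes divided, with Atf6 (-1.03 ± 0.18) and Eif2ak3 (-0.77 ± 0.20) lower and Ern1 not past the test (-0.32 ± 0.20, adjusted p = 0.244). Genes of the integrated stress response, Atf4 (0.22 ± 0.22, adjusted p = 0.477) and Ddit3 (-0.23 ± 0.43, adjusted p = 0.728), did not pass either. Atf3, which is also an immediate early gene, was the higher member, at 9.31, 7.94, 6.87 and 8.38 in alpha DT and 3.59 to 7.20 (median 4.12) in beta (3.30 ± 0.65, adjusted p = 0.000236).

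Immediate early genes are those that cells induce within minutes of a stimulus or of tissue dissociation. They were higher in 20 of 23 cases and lower in none, where 13.6% of all genes tested were higher. The median was 2.72. Against the alpha libraries without toxin, 0 of them were higher and 0 lower in alpha DT, with a median of -0.22. Only 3.26% of all genes tested passed in that contrast, so this count does not set the list apart. Egr4, a zinc finger factor, was 7.64, 7.85, 8.11 and 7.62 in alpha DT and 0.86 to 4.10 (median 1.17) in beta (5.78 ± 0.65, adjusted p = 2.91e-08). Egr2, of the same family, was 9.54, 9.46, 8.48 and 10.49 in alpha DT and 3.95 to 7.65 (median 4.34) in beta (4.19 ± 0.65, adjusted p = 9.64e-06). Fos, an AP-1 subunit, was 14.32, 14.17, 13.63 and 14.10 in alpha DT and 10.001 to 12.73 (median 11.11) in beta (2.68 ± 0.33, adjusted p = 2.31e-07). Every alpha DT library lay above every beta library for Egr4, Egr2 and Fos. The mean over the list was 9.87 to 10.42 in alpha DT, 9.01 in beta 1, 8.45 in beta 5 and 6.92 to 7.63 in the other beta libraries. Without that pair the count was again 20 and 0, and the median 3.29. The groups were sorted from different reporter strains, and the part of cell handling in this difference was not tested. Fosl2 (-1.17 ± 0.67, adjusted p = 0.2), Fosl1 (-0.50 ± 0.96, adjusted p = 0.735) and Ier3 (-0.29 ± 0.39, adjusted p = 0.616) did not pass.

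**Figure D4:**
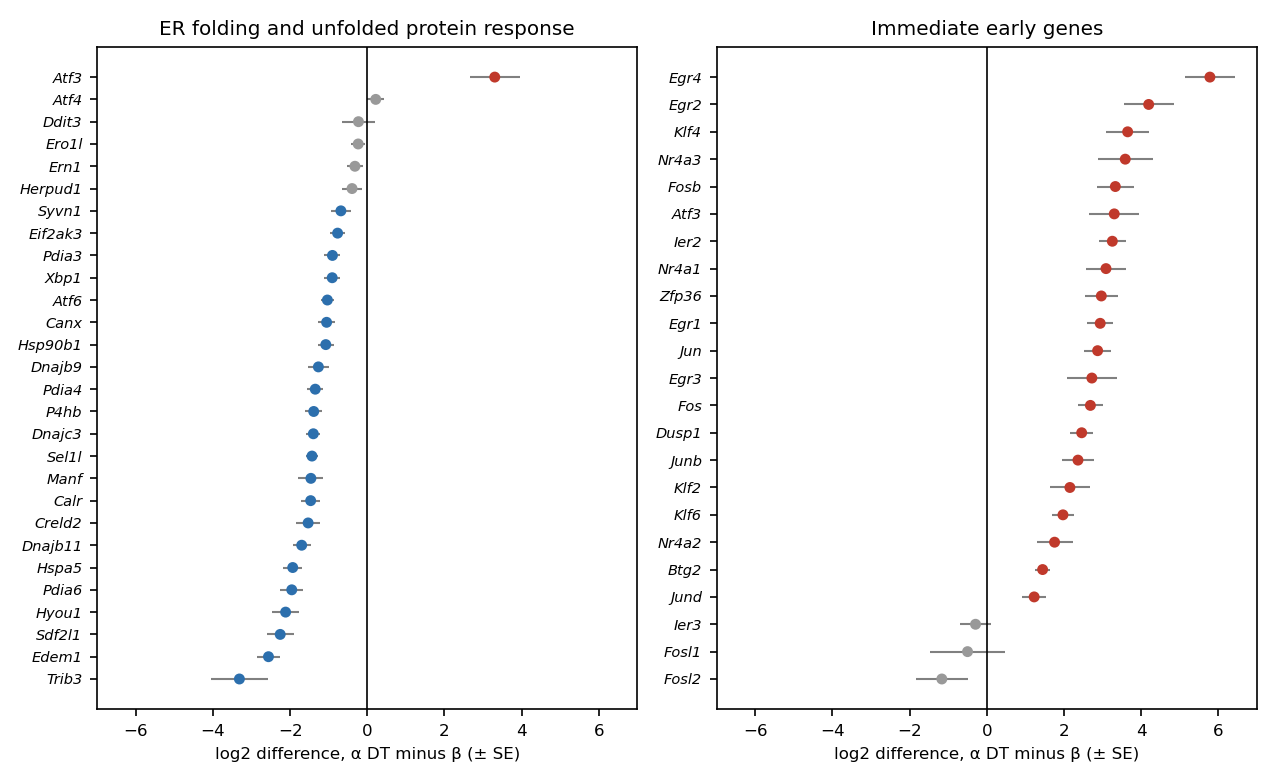
Log2 difference, alpha DT minus beta (x axis, point, with the standard error as a bar), of each of 28 tested genes of ER folding and the unfolded protein response (left) and 23 tested immediate early genes (right), in blue where lower, in red where higher and in grey where not past the threshold. On the left 22 genes lie past the threshold below 0 and Atf3 lies above it, and on the right 20 genes lie past it above 0.

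Of 30 insulin and IGF signalling genes, 4 were higher and 14 lower in alpha DT (3 and 12 without beta 1 and beta 5, and 2 and 15 on the centred scale). Grb10, an adaptor that restrains the insulin receptor, was 13.45, 13.49, 13.15 and 13.74 in alpha DT and 10.05 to 12.28 (median 10.66) in beta (2.50 ± 0.34, adjusted p = 1.01e-06). Eif4ebp1, a translation repressor downstream of mTOR, was 6.41, 6.60, 3.85 and 3.23 in alpha DT and 6.68 to 8.08 (median 7.39) in beta (-2.40 ± 0.48, adjusted p = 0.000211). The receptor genes differed, with Igf1r lower (-1.38 ± 0.27, adjusted p = 0.000142) and Insr not past the test (0.03 ± 0.16, adjusted p = 0.902). Foxo4 (1.56 ± 0.54, adjusted p = 0.026, or 0.0588 to 0.0711 with alpha DT 2 or alpha DT 4 left out), a factor restrained by insulin, and Socs2 (-1.43 ± 0.51, adjusted p = 0.0319, or 0.0546 to 0.187 with alpha DT 1, alpha DT 2 or beta 2 left out) passed, but neither did so without beta 1 and beta 5 (1.43, adjusted p = 0.0655 and -1.38, adjusted p = 0.061). Of 21 amino-acid transporters, 3 were higher and 4 lower (5 and 4 without that pair, and 2 and 9 on the centred scale), a share (33.3%) near the 30.1% of all genes. Slc1a5, a glutamine transporter, was 7.98, 8.13, 7.72 and 6.97 in alpha DT and 4.79 to 6.34 (median 5.17) in beta (2.46 ± 0.45, adjusted p = 7.10e-05). Slc1a4, a neutral amino-acid transporter (-2.43 ± 0.51, adjusted p = 0.000448) and the lysosomal transporter gene Slc36a1 (-1.59 ± 0.24, adjusted p = 3.45e-06) were lower. Slc38a11 passed with overlapping libraries (2.74 ± 0.87, adjusted p = 0.0163). With the leukocyte mean as covariate neither Foxo4 (adjusted p = 0.09) nor Socs2 (adjusted p = 0.079) passed, and Foxo4 did not pass on the centred scale (adjusted p = 0.0846).

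Surface adhesion genes also differed in both directions. Of 22 tested, 10 were higher and 8 lower in alpha DT. Pcdh9, a protocadherin, was 9.64, 10.17, 9.03 and 9.44 in alpha DT and 3.92 to 7.34 (median 4.49) in beta (4.48 ± 0.45, adjusted p = 4.60e-09). Nrxn3, a neurexin, was higher (3.07 ± 0.65, adjusted p = 0.000438). Cdh7, a cadherin, was 2.00, 1.72, 3.32 and 2.18 in alpha DT and 6.06 to 7.57 (median 7.09) in beta (-4.63 ± 0.64, adjusted p = 1.02e-06). Gjd2 (chr2:114009601-114013619), the gap junction connexin that couples beta-cells electrically, was 8.46, 8.12, 8.38 and 10.36 in alpha DT and 11.35 to 12.20 (median 12.05) in beta (-3.07 ± 0.32, adjusted p = 5.70e-09), with alpha DT 4 nearest to beta. Of 24 axon guidance genes, 9 were higher and 1 lower (13 and 1 without beta 1 and beta 5). The semaphorin genes Sema3e (2.64 ± 0.37, adjusted p = 1.45e-06) and Sema6a (2.64 ± 0.38, adjusted p = 1.92e-06) were higher. Robo1, a Slit receptor, was the lower member, at 8.16, 8.73, 9.08 and 10.23 in alpha DT and 11.11 to 12.04 (median 11.65) in beta (-2.54 ± 0.25, adjusted p = 2.06e-09).

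Developmental pathways gave scattered members. Of 15 Notch genes, 3 were higher and 2 lower (1 and 3 on the centred scale), a share (33.3%) near the 30.1% of all genes. Notch2 (2.04 ± 0.48, adjusted p = 0.0015) and the ligand gene Jag1 (1.40 ± 0.45, adjusted p = 0.017, or 1.15, adjusted p = 0.0761, without alpha DT 1) were higher, and the ligand genes Jag2 (-2.67 ± 0.60, adjusted p = 0.000928) and Dll4 (-2.74 ± 0.62, adjusted p = 0.000986, or -1.81, adjusted p = 0.0163, without alpha DT 1) lower. Of 6 tested Hedgehog genes, 2 were higher and 1 lower. Gli2, a transcription factor at the end of the pathway, was 4.29, 5.63, 2.00 and 6.12 in alpha DT and 0.86 to 2.98 (median 1.03) in beta (2.97 ± 0.66, adjusted p = 0.000782). Gli2 was at the lowest value of the library in alpha DT 3 and in every beta library but beta 1 and beta 5, so its size is uncertain. Smo, the signal transducer, was at 1.55 ± 0.37, adjusted p = 0.00157 and the co-receptor gene Cdon at -0.81 ± 0.16, adjusted p = 0.00019. Of 25 Wnt genes, 5 were higher and 7 lower (4 and 9 on the centred scale). Sfrp5, a secreted Wnt inhibitor, was 12.45, 12.81, 12.16 and 11.53 in alpha DT and 5.04 to 9.92 (median 6.83) in beta (4.86 ± 0.57, adjusted p = 2.23e-07). The secreted protein gene Dkk3 was higher (3.79 ± 1.07, adjusted p = 0.00703, or 3.00, adjusted p = 0.0501, without alpha DT 3), and the co-receptor gene Lrp5 (-2.53 ± 0.68, adjusted p = 0.00437, or -1.76, adjusted p = 0.0505, without alpha DT 3) and receptor gene Fzd7 (-3.55 ± 1.11, adjusted p = 0.0161, or 0.098 to 0.113 with alpha DT 1 or alpha DT 3 left out) were lower. Fzd7 was 2.38, 6.74, 2.00 and 10.13 in alpha DT, so that alpha DT 4 lay above all beta libraries. Jag1 did not pass on the centred scale (1.10, adjusted p = 0.0683), nor Dkk3 with library weights (3.31, adjusted p = 0.067).

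Of 27 TGF-beta, activin and BMP genes, 9 were higher and 2 lower in alpha DT (7 and 4 on the centred scale). Tgfb2, a ligand, was 9.05, 9.93, 9.22 and 9.91 in alpha DT and 5.10 to 7.50 (median 5.21) in beta (3.79 ± 0.44, adjusted p = 5.25e-08). Id3, a BMP target, was 8.46, 8.25, 9.57 and 7.88 in alpha DT and 3.42 to 7.41 (median 3.64) in beta (3.997 ± 0.675, adjusted p = 2.86e-05). Inhba, the activin A subunit, was 2.00, 4.01, 2.00 and 2.67 in alpha DT and 5.45 to 7.34 (median 6.50) in beta (-3.72 ± 0.78, adjusted p = 0.000381). The groups did not overlap for Tgfb2, Id3 or Inhba. Bmp1, a procollagen protease in spite of its name, was lower (-2.06 ± 0.55, adjusted p = 0.00522). Interferon response and class I genes were 3 higher and 6 lower of 27, and 4 higher and 2 lower of 26 without beta 1 and beta 5. The first count is a share (33.3%) near the 30.1% of all genes, and on the centred scale it was 2 higher and 12 lower. Oas2 was lower (-3.18 ± 0.82, adjusted p = 0.00318) and the RNA sensor gene Ifih1 higher (1.81 ± 0.41, adjusted p = 0.000955). B2m, the class I light chain, was 12.66, 13.06, 13.15 and 14.22 in alpha DT and 10.46 to 14.60 (median 11.06) in beta (1.75 ± 0.53, adjusted p = 0.0136, or 1.43, adjusted p = 0.0639, without alpha DT 4), with beta 1 highest. With the 11 libraries fitted alone its adjusted p was 0.0644. Ifit3 (-2.92 ± 1.01, adjusted p = 0.0269, or 0.0583 to 0.0859 with alpha DT 1, alpha DT 2, alpha DT 3 or beta 1 left out) did not pass without that pair (-2.49, adjusted p = 0.0761).

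Chromatin and cell cycle genes passed at a share near or under that of all genes, 30.1%. Of 22 chromatin regulators, 3 were higher and 4 lower (2 and 5 on the centred scale), including the deacetylase genes Hdac5 (1.06 ± 0.31, adjusted p = 0.00904, or 0.57, adjusted p = 0.12, without alpha DT 3) and Hdac4 (-0.95 ± 0.25, adjusted p = 0.00408), the demethylation enzyme gene Tet1 (1.00 ± 0.21, adjusted p = 0.000453) and the methyltransferase gene Dnmt3b (-1.21 ± 0.39, adjusted p = 0.0184, or 0.0767 to 0.112 with alpha DT 2 or alpha DT 3 left out). Of 23 cell cycle genes, 2 were higher and 1 lower (1 and 4 on the centred scale). The inhibitor gene Cdkn2b was 4.80, 5.57, 6.05 and 5.25 in alpha DT and 7.13 to 8.05 (median 7.32) in beta (-2.12 ± 0.37, adjusted p = 3.75e-05). The imprinted inhibitor gene Cdkn1c was higher (1.499 ± 0.383, adjusted p = 0.00301), as was the replication gene Mcm3 (1.40 ± 0.50, adjusted p = 0.0324, or 0.0534 to 0.103 with alpha DT 1, alpha DT 2, alpha DT 4, beta 2, beta 4, beta 5 or beta 7 left out). The proliferation marker gene Mki67 did not pass (-0.06 ± 0.72, adjusted p = 0.966). Cdkn1c did not pass with library weights (1.08, adjusted p = 0.0817), nor Hdac5 on the centred scale (0.76, adjusted p = 0.133). The adjusted p of Mcm3 was 0.0532 to 0.101 with the 11 libraries alone, an offset of 32, the leukocyte mean as covariate or centring.

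Genes of other islet cells were higher in part. Ppy, pancreatic polypeptide, was 17.92, 18.63, 18.63 and 18.27 in alpha DT and 11.27 to 16.47 (median 12.21) in beta (5.22 ± 0.81, adjusted p = 1.85e-05). It ranked 5 to 7 in alpha DT, 17 in beta 1, 31 in beta 5 and 699 to 2522 in the other beta libraries. Sst, the delta-cell hormone, was 15.46, 17.68, 17.68 and 14.84 in alpha DT and 11.28 to 16.66 (median 12.08) in beta (3.25 ± 0.96, adjusted p = 0.0119), with beta 1 and beta 5 within the alpha DT range. With the 11 libraries fitted alone its adjusted p was 0.0703. Of 6 delta-cell markers, 2 were higher and 2 lower. Rbp4, the retinol-binding protein, was higher (2.02 ± 0.41, adjusted p = 0.000392), and Nrg4 (-1.66 ± 0.43, adjusted p = 0.00366) and the calcium-sensing receptor gene Casr (-1.05 ± 0.35, adjusted p = 0.0232, or 0.0575 to 0.131 with alpha DT 3 or alpha DT 4 left out), which is also on the beta-cell receptor list, were lower. Rbp4 was 13.39 to 15.11 (median 13.96) in alpha, against 13.08 to 13.94 in alpha DT. Of 6 PP-cell and other peptide genes, 4 were higher and none lower. Casr did not pass with library weights (-0.87, adjusted p = 0.0522).

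Several markers of cells outside the endocrine lineage varied between libraries. None of 17 acinar-cell markers passed in limma, though the median was 1.84 and the libraries ranged widely. Without beta 1 and beta 5 the median was 3.41 and 1 of 17 passed, as did 1 with the 11 libraries fitted alone. Ctrb1, chymotrypsinogen, was 17.31, 16.66, 11.40 and 15.16 in alpha DT and 8.75 to 16.98 (median 13.51) in beta (2.38 ± 2.14, adjusted p = 0.432). Ctrc was at 3.34 ± 1.53, adjusted p = 0.102. Of 17 leukocyte and macrophage markers, 2 were higher and none lower (6 and 0 of 16 without beta 1 and beta 5). The first count is a share (11.8%) near the 13.6% of all genes tested that were higher, and under the 30.1% that differed in either direction. Marco, a scavenger receptor of macrophages, was 7.21, 9.45, 8.38 and 10.87 in alpha DT and 3.07 to 9.05 (median 4.87) in beta (3.55 ± 1.29, adjusted p = 0.0361, or 0.0532 to 0.122 with alpha DT 2, alpha DT 3, alpha DT 4, beta 2, beta 4, beta 6 or beta 7 left out). Timd4, a receptor of resident macrophages, was 7.96, 10.71, 6.46 and 11.80 in alpha DT and 4.45 to 9.81 (median 5.72) in beta (2.90 ± 1.09, adjusted p = 0.0421, or 0.0629 to 0.187 with alpha DT 2, alpha DT 4, beta 2, beta 3, beta 4, beta 6 or beta 7 left out). No member of either list was at the lowest value in all libraries of a group. Adding the mean of these leukocyte and macrophage markers to the fit gave 5014 genes in place of 5010, of which 4425 were shared. In that fit none of the 17 was higher and 2 were lower, and neither Marco (adjusted p = 0.0792) nor Timd4 (adjusted p = 0.113) passed. The covariate is the mean of these same markers and takes out their shared difference, so that fit cannot test them. On the centred scale no member passed. With the 11 libraries fitted alone the adjusted p of Timd4 was 0.0624. Of 9 mesenchymal markers 2 were higher and none lower (5 higher without that pair). The share in the first count (22.2%) lies above the 13.6% of all genes that were higher, and under the 30.1% that differed in either direction. Col1a2, a collagen, was 10.46, 10.31, 9.89 and 9.73 in alpha DT and 4.96 to 7.96 (median 5.45) in beta (4.18 ± 0.44, adjusted p = 1.16e-08). In alpha it was 8.93 to 10.91 (median 10.20), a range that holds the alpha DT values. Vim was at 2.37 ± 0.70, adjusted p = 0.0106, or 2.00, adjusted p = 0.05, without alpha DT 4. Of 7 duct-cell markers, 1 was higher, Spp1 (2.33 ± 0.64, adjusted p = 0.00629), and 3 lower, among them the keratin genes Krt7 (-1.87 ± 0.33, adjusted p = 4.44e-05) and Krt19 (-2.61 ± 0.93, adjusted p = 0.0312, or 0.0503 to 0.0801 with alpha DT 1, alpha DT 3, beta 1, beta 2 or beta 7 left out, or -1.97, adjusted p = 0.0637 without that pair). Krt19 did not pass with library weights (-1.73, adjusted p = 0.308) or with an offset of 32 (-1.30, adjusted p = 0.0816) either. Without beta 1 and beta 5 the duct-cell count was 3 higher and 2 lower. None of 4 endothelial markers passed (1 was lower on the centred scale and with the 11 libraries alone), with Pecam1 at 1.32 ± 1.12, adjusted p = 0.401 and Ramp2 at -1.70 ± 0.70, adjusted p = 0.0658. Of 5 neural and glial markers, 2 were higher (1 without that pair), among them Fabp7. Fabp7, a fatty acid-binding protein, was 10.98, 9.19, 6.87 and 7.87 in alpha DT and 2.74 to 4.03 (median 3.44) in beta (5.26 ± 0.99, adjusted p = 0.000134).

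Setting the same alpha DT libraries against the 8 alpha libraries gave 543 genes past the threshold, 3.26% of those tested. Both comparisons share the alpha DT libraries, so they are not independent. The beta-cell genes Ins1, Slc2a2 and Pdx1 did not pass in this contrast. Ins1 was 11.61 to 18.27 (median 13.15) in alpha, and alpha DT minus alpha was -0.43 ± 1.18, adjusted p = 0.871. Slc2a2 was 4.12 to 7.66 (median 6.73) in alpha (-0.79 ± 0.56, adjusted p = 0.454), and Pdx1 was 3.66 to 11.23 (median 5.03) in alpha (0.10 ± 1.15, adjusted p = 0.972), where the highest value is that of the library labelled alpha 8. For Ins1 the alpha DT median, 13.68, lay above the alpha median, so the sign depends on whether means or medians are compared. The alpha DT median of Pdx1, 6.07, also lay above that of alpha. Differences without the highest alpha library are not given for these genes. With alpha 8, beta 1 and beta 5 among 5 doubted libraries left out, the count of 543 was 540. Irx1 did not pass in this contrast either (0.07 ± 0.68, adjusted p = 0.967). A p above the threshold does not show that these levels are equal. Of the 17 leukocyte and macrophage markers, 7 were higher in alpha DT than in alpha. The count of 543 was 45 with the alpha DT and alpha libraries fitted alone, and 0 in a test against a difference of 1 (limma, treat), where 246 genes had an unadjusted p under 0.05.

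Some genes in alpha DT lay away from both cell types. Prph (chr15:99055174-99058978), an intermediate filament of neurons, was 7.32, 8.26, 8.94 and 3.39 in alpha DT, 0.76 to 5.93 (median 0.83) in alpha and 0.86 to 5.12 (median 1.03) in beta. It was higher than beta (5.33 ± 0.99, adjusted p = 9.86e-05) and than alpha (5.49 ± 0.97, adjusted p = 0.00229). The library alpha DT 4 lay far below the other 3, and beta 5 above the other beta libraries. Stmn2, a neuronal microtubule regulator, showed the same order of alpha DT libraries with 6.91, 8.16, 8.82 and 3.39, and differed from beta (4.66 ± 1.17, adjusted p = 0.00258) and from alpha (4.85 ± 1.14, adjusted p = 0.0172). The choline transporter gene Slc5a7 (4.38 ± 1.00, adjusted p = 0.000986, against beta), the transporter gene Slc10a4 (4.51 ± 0.79, adjusted p = 4.38e-05) and the chaperone gene of odorant receptors Rtp1 (4.65 ± 1.08, adjusted p = 0.00121) were also above both by group mean. The highest alpha library was alpha 4 for all 3, at 5.97 for Slc5a7, 3.52 for Slc10a4 and 5.23 for Rtp1, and the highest beta library was beta 5. In alpha DT 4 they were at 2.88, 3.05 and 2.44, below both alpha 4 and beta 5. Slc10a4 reached 5 in no alpha or beta library, so it passed the filter on low values in part through the alpha DT libraries where it is high. It was tested in 18 of 23 alternatives. Vip, a neuropeptide, was 8.81, 11.63, 9.77 and 5.21 in alpha DT, 1.23 to 7.39 (median 2.77) in alpha and 3.76 to 6.89 (median 4.09) in beta (difference from beta 4.36 ± 0.98, adjusted p = 0.000902, and from alpha 5.66 ± 0.95, adjusted p = 0.00158). Genes below both were Ffar3, a receptor of short-chain fatty acids, at 1.07, 4.85, 5.92 and 6.28 in alpha DT, 5.92 to 9.04 (median 6.84) in alpha and 7.41 to 9.37 (median 8.97) in beta (difference from beta -4.23 ± 0.65, adjusted p = 8.15e-06), and 4 genes known here only by an identifier. Of these Gm18792 (-3.95 ± 0.68, adjusted p = 3.52e-05), Gm14097 (-2.62 ± 0.62, adjusted p = 0.00157) and 4933405O20Rik (-2.41 ± 0.69, adjusted p = 0.00785, or -1.96, adjusted p = 0.0501, without alpha DT 3) were below beta. The lincRNA gene 4930553P18Rik was at the lowest value of the library in all 4 alpha DT libraries and 3.19 to 5.68 (median 4.87) in beta (adjusted p = 5.53e-06).

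**Figure D5:**
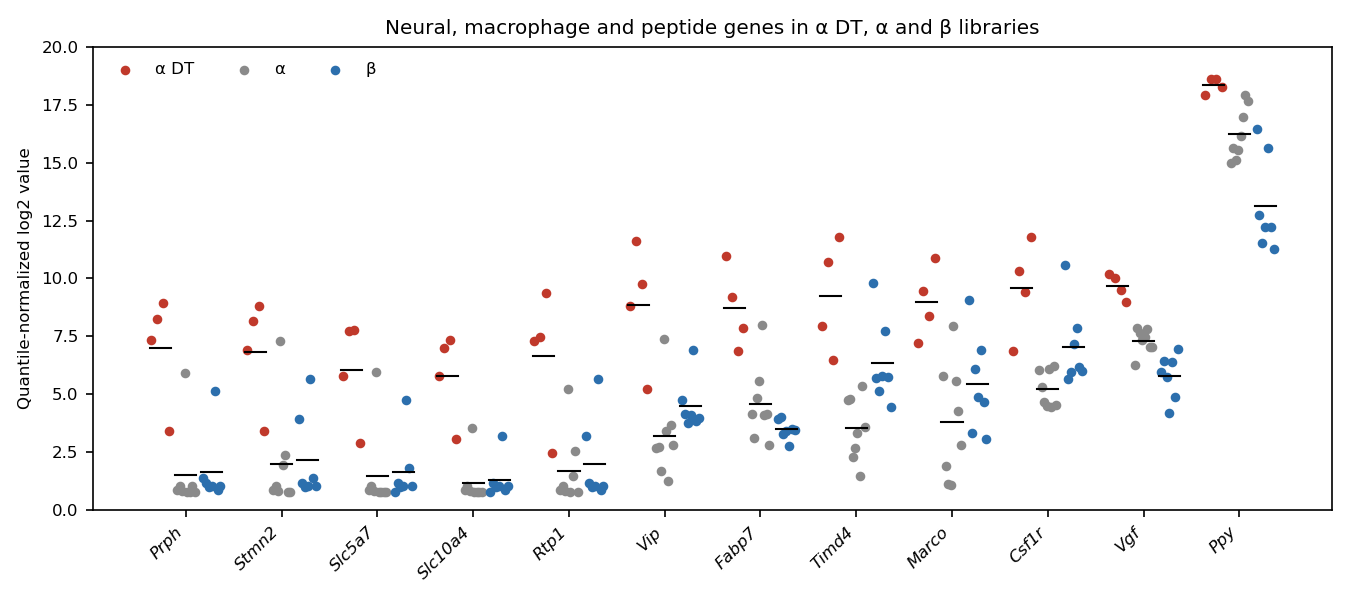
Deposited log2 values (y axis) of neural, macrophage and peptide genes, with a point for each library, alpha DT in red (n = 4), alpha in grey (n = 8) and beta in blue (n = 7), and bars at group means. Prph, Stmn2, Slc5a7, Slc10a4 and Rtp1 are high in 3 of 4 alpha DT libraries, and Ppy is at 17.92 to 18.63 in alpha DT, a level that 1 alpha library, alpha 7, reaches at 17.92.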

How the data were processed

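Sorted mouse islet cells were profiled by bulk RNA-seq. The labels' protocols name the RNeasy Micro kit for RNA and QuantiTect for cDNA. Alignment used GSNAP and the GRCm38 build, as listed in the submitters' processing notes. The sources used here give no version, annotation or counting rule. The authors deposited 1 table of log2 values for 17775 genes, and the values show it to be quantile-normalized.

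A gene was tested if it reached 5 in 4 or more libraries, true of 16633 genes and not of 1142. All 30 libraries entered a linear model in limma 3.58.1 (R 4.3.3) with a mean for each of the 5 groups, using its trend and robust options. Contrasts were alpha DT minus beta and alpha DT minus alpha, two-sided, Benjamini-Hochberg adjusted over the genes tested at a threshold of 0.05. The fit was tested on simulated data. Tables and figures used Python 3.11.15, pandas 2.3.3, numpy 2.4.6 and matplotlib 3.10.9.

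The gene lists and the named genes were chosen with earlier results of these data known. Named genes were a fixed set of identity genes, the 8 highest and 8 lowest differences among genes above the median level whose libraries did not overlap, up to 2 members per direction of each list (or 2 where none passed), and up to 5 genes above and 5 below both beta and alpha. Genes named outside that rule were chosen after their values were seen, namely Abcc8, Atf4, Atf6, Cacna1d, Chga, Chgb, Ddit3, Eif2ak3, Ern1, Ffar1, Ffar2, Fos, Fosl1, Fosl2, G6pc2, Gc, Gcgr, Gipr, Hadh, Hspa5, Ier3, Igf1r, Insr, Kcnj11, Ldha, Mki67, Mnx1, Neurod1, Nkx6-3, Npy, Pcsk2, Pcx, Rfx3, Scg2, Scg5, Sh3gl2, Slc30a8 and Slc38a5. Gene positions came from the GENCODE annotation and promoters from RefSeq. Alternatives covered filters, an offset, library weights, covariates, centring, a minimum fold, fits to the compared libraries only and left-out libraries. The alternatives for alpha DT against alpha were added after the data were seen. Some genes the rule picks are not reported here. Raw reads were not analysed here.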

Additional observations from a re-analysis of the deposited data

Results flagged for a closer look

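Single libraries that lay apart from the rest of their group were sought for the named genes, by the gap to the nearest other library over the whole range (above 0.829 for 4 libraries and 0.568 for 7). Of 283 groups of values examined, 25 were picked out, and chance picks out about 1 in 20. Of these 12 were in beta 1 and 6 in beta 5, the libraries in which Gcg was the top gene. Log2 values are given with the range of the other libraries of the group.

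In beta 1 these were 4930553P18Rik at 3.19 (others 4.62 to 5.68), B2m at 14.60 (others 10.46 to 11.62), Fcgrt at 5.13 (others 0.86 to 1.72), Gm17767 at 8.66 (others 10.24 to 10.89), Hnf4g at 9.85 (others 8.19 to 8.52) and Ifit3 at 8.48 (others 4.98 to 5.80). The same library also had Krt19 at 10.48 (others 3.64 to 6.12), Mcm3 at 6.95 (others 3.97 to 5.03), Me1 at 9.91 (others 9.18 to 9.44), Slc1a5 at 6.34 (others 4.79 to 5.25), Slc36a1 at 10.90 (others 11.22 to 11.46) and Slc38a11 at 3.84 (others 0.99 to 1.81). Of the 12, those of Gm17767, Slc36a1 and 4930553P18Rik were lower than in the other beta libraries. In beta 5 they were Cacng4 at 5.76 (others 4.10 to 4.58), Cplx1 at 4.48 (others 0.86 to 2.39), Prph at 5.12 (others 0.86 to 1.36), Slc10a4 at 3.18 (others 0.76 to 1.17), Slc5a7 at 4.75 (others 0.76 to 1.81) and Vip at 6.89 (others 3.76 to 4.74), all higher than in the other beta libraries. In beta 4 it was Foxo4 at 7.72 (others 6.63 to 7.06).

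In alpha DT 3 they were 4930553P18Rik at 2.00 (others 0.99 to 1.07), Mafa at 2.00 (others 0.99 to 1.07) and Syt13 at 13.22 (others 12.57 to 12.62). The values of Mafa and 4930553P18Rik there are the lowest value of that library, which lies above that of the other alpha DT libraries. In alpha DT 4 they were Gjd2 at 10.36 (others 8.12 to 8.46) and Ifit3 at 5.63 (others 2.00 to 2.40). In alpha DT 2 it was Rgs4 at 12.47 (others 11.67 to 11.80).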

How the results depend on the processing

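The count of 5010 genes stayed between 4354 and 5492 under the filters, the offset, covariates, weights, centring and left-out library pairs. It was 856 (411 higher and 445 lower) in a test against a log2 difference of 1. Centring on pan-endocrine factors gave 1293 higher and 4199 lower. Leaving out 1 alpha DT or beta library at a time gave 4463 to 5094 genes, with 1999 to 2287 higher and 2449 to 2807 lower. For alpha DT against alpha the count of 543 was 45 with those libraries alone, 208 with library weights, 117 with the leukocyte list mean and 295 with Rn18s-rs5 as a covariate, 296 when centred and 0 against a difference of 1, and 306 to 1080 with 1 library left out. It was 1080 without alpha DT 4, 335 without alpha DT 2 and 306, 347, 370 and 376 without alpha 2, alpha 4, alpha 8 and alpha 6. The causes were not tested.

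Of the 138 named genes past the threshold, 79 passed in every alternative that tested them, 79 passed the test against a difference of 1 and 132 passed without beta 1 and beta 5. Over 3227 values of named genes under 23 alternatives, 156 were no longer past the threshold, 6 newly were and 0 changed direction. No paired analysis was possible because the titles of these libraries share no replicate numbers. Quantile normalization fixes the values of the most abundant genes, and depth is unknown, so no counting interval is given.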
